A study of Rattus norvegicus with 5 samples.

Results

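The genes of complement, coagulation and acute phase plasma proteins were compared between the livers of a congenic and a progenitor rat strain. They were chosen by name from a list of 55 liver-secreted proteins, and 38 of these were measured on a probe set annotated with that gene alone, out of 7589 named genes in all. The 38 comprised 13 complement, 13 coagulation and 12 acute phase genes. A further 4 listed genes (C4a, C4b, Kng1 and Saa4) lay on 4 probe sets that also carry other symbols, which are given under all their symbols and not counted. The remaining 13 (C1r, C2, Masp2, Cfd, C5, C8a, C8b, Cfi, F5, F9, F11, F13b and Pros1) were not analysed here.

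The congenic strain, PD.SHR4 in the sample labels and PD.SHR4a in the series text, carries a segment of spontaneously hypertensive rat (SHR) chromosome 4 on the background of the polydactylous rat strain, PD. The series title describes such congenic rats as lacking CD36, the fatty acid translocase encoded on that chromosome. Both groups were 4-month-old males on standard chow, and labelled liver cDNA of 8 rats was pooled per strain. The pools were hybridised to 2 arrays for PD.SHR4 and 3 for PD, of the Affymetrix type Rat Exon 1.0 ST. Since nothing in the labels names separate pools within a strain, p-values measure the spread of arrays only. That spread may be technical, and the variation from rat to rat is not in it.

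Plasma proteins of these families are made mostly by hepatocytes, while the C1q chains in liver come largely from macrophages. Complement is a cascade started by C1q (the classical pathway), by mannose-binding lectins (the lectin pathway) or by slow turnover of C3 (the alternative pathway). All routes cleave C3 and end in a pore of C5b to C9 in the target membrane. Coagulation is a parallel protease cascade that ends in fibrin, held in check by antithrombin, protein C and plasmin. Acute phase proteins are those whose liver output rises (positive) or falls (negative) during inflammation, mainly under interleukin 6, interleukin 1 and glucocorticoids acting through STAT3, C/EBP and glucocorticoid receptor.

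Promoters are shown for the members that passed the test, C6 and Orm1, and for contrast for C4bpa and Fgb, which were chosen after their values were seen. Each runs from 250 bases before to 50 bases after the annotated start and is written 5′ to 3′ on the gene's strand, from RefSeq on GRCr8. Capitals mark matches to the motifs described after the sequences. The windows are chr2:55573383-55573682 (plus strand) for C6, chr5:81788259-81788558 (plus) for Orm1, chr13:44663422-44663721 (minus) for C4bpa and chr2:170700826-170701125 (minus) for Fgb.
C6: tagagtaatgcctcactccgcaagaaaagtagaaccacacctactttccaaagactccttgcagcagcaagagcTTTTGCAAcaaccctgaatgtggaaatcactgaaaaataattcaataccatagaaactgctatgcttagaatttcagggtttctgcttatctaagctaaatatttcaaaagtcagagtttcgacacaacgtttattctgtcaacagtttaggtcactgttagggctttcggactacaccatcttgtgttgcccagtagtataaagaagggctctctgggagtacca
Orm1: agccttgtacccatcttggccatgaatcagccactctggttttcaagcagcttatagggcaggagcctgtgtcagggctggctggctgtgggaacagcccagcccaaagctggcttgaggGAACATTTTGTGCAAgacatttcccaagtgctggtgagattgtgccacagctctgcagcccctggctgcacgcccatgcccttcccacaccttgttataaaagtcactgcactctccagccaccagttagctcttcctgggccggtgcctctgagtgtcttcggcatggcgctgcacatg
C4bpa: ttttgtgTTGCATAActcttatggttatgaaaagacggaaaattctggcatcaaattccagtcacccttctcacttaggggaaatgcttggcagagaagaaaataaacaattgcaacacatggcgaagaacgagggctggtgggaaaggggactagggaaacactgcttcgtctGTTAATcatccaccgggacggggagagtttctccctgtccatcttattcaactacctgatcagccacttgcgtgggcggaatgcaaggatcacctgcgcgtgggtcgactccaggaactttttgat
Fgb: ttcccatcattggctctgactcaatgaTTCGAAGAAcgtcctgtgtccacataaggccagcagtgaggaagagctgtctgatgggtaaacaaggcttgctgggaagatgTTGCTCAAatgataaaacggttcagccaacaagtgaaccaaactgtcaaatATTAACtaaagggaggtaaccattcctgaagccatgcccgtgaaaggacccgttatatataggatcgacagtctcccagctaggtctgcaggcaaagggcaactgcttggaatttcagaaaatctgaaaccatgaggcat

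Promoter windows were matched for 30 of the 38 genes by gene ID. The motifs searched on both strands were TTCNNNGAA (STAT), TTGCNNAA (C/EBP), GTTAAT (part of the HNF1 site), CAAAGTCCA (HNF4), GGGA and TTTCC with any 1 base between (NF-kappaB), GAAA and GAAA with any 2 bases between (interferon-stimulated response element), TTANGTAA (D box) and GNACA and TGTNC with any 3 bases between (glucocorticoid receptor). The C/EBP letters were found in the windows of 12 of the 30 genes, a share of 40.0%, against 10.6% of all 33469 promoters. These letters lie in the C6, C4bpa, Orm1 and Fgb windows alike. The glucocorticoid receptor letters were in 4 windows, including that of Orm1, against 0.439% of all promoters, and in Orm1 they overlap the C/EBP match. The STAT letters were in 5 windows, against 8.87% of all, and the HNF1 letters in 7, against 7.45%. Of the 7 genes with the HNF1 letters, 5 were coagulation genes (Fga, Fgb, F2, Proc and Plg), 1 was C4bpa and 1 was Alb. No window held the HNF4, NF-kappaB or interferon-response letters, which occur in 0.391%, 0.362% and 3.92% of all promoters. The D box letters were in the Alb window only, against 2.24% of all. A match describes letters and is not a binding site.

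Values are RMA expression levels on the log2 scale, as deposited. Array medians lay between 5.21 and 5.38, and the highest value on any array was 13.4. The label "liver" fitted the markers: 12 of 14 listed hepatocyte markers were measured, with mean levels of 9.67 to 12.6. Of these 12, 8 had values above 0 and 4 below, with a median of 0.097 and extremes of 0.43 for Cyp2e1 and -1.17 for G6pc1, and none passed the test. The single probe set for Cd36 and its paralogue Cd36l1 measured 4.18 and 4.85 in PD.SHR4, against 7.35, 7.83 and 7.93 in PD (-3.19 ± 0.26 SE; limma, adjusted p = 0.0149). Most of the plasma protein genes were among the brightest on the arrays, with a median level of 11.995 and a median rank at the 99.0th percentile of all probe sets. The number of arrays limits the precision.

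Values were lower in PD.SHR4 livers for 12 of 13 complement, 10 of 13 coagulation and 7 of 12 acute phase genes. Coagulation genes were close to their PD levels, while 1 complement gene, C6, and 1 acute phase gene, Orm1, fell. Over all 38 genes, 2 fell (C6 and Orm1), 0 rose and 36 did not pass the test (limma over all probe sets, Benjamini-Hochberg adjusted p under 0.05). Over the whole array, 0.932% of the 8797 probe sets passed, 0.659% as lower and 0.273% as higher. At an unadjusted p under 0.05 there were 12 lower and 0 higher members, against 7.92% and 5.84% of all probe sets (13.8% in either direction). The 12 were 9 complement genes, 3 acute phase genes and 0 coagulation genes. The median log2 difference (PD.SHR4 minus PD) was -0.40 for complement, -0.051 for coagulation and -0.074 for the acute phase genes, against 0.00020 over all probe sets. The acute phase median joined 9 positive members (median -0.22, 7 below 0) and 3 negative members (median 0.058, 0 below 0). Values were below 0 in 29 of the 38 genes, against 50.0% of all probe sets. PD.SHR4 arrays all lay below the PD arrays in 23 genes and all above them in 2, against 17.1% and 14.8% of all probe sets (31.9% in either direction). That background was not matched for level. All probe sets had a median level of 5.27 and a median PD.SHR4 SD of 0.093, against 0.022 for the members, so smaller differences can part the members' arrays. Of the 12 bright hepatocyte markers, 3 lay below and 6 above without overlap. The counts and medians of the members describe the list and were not tested as sets.

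**Figure D1:**
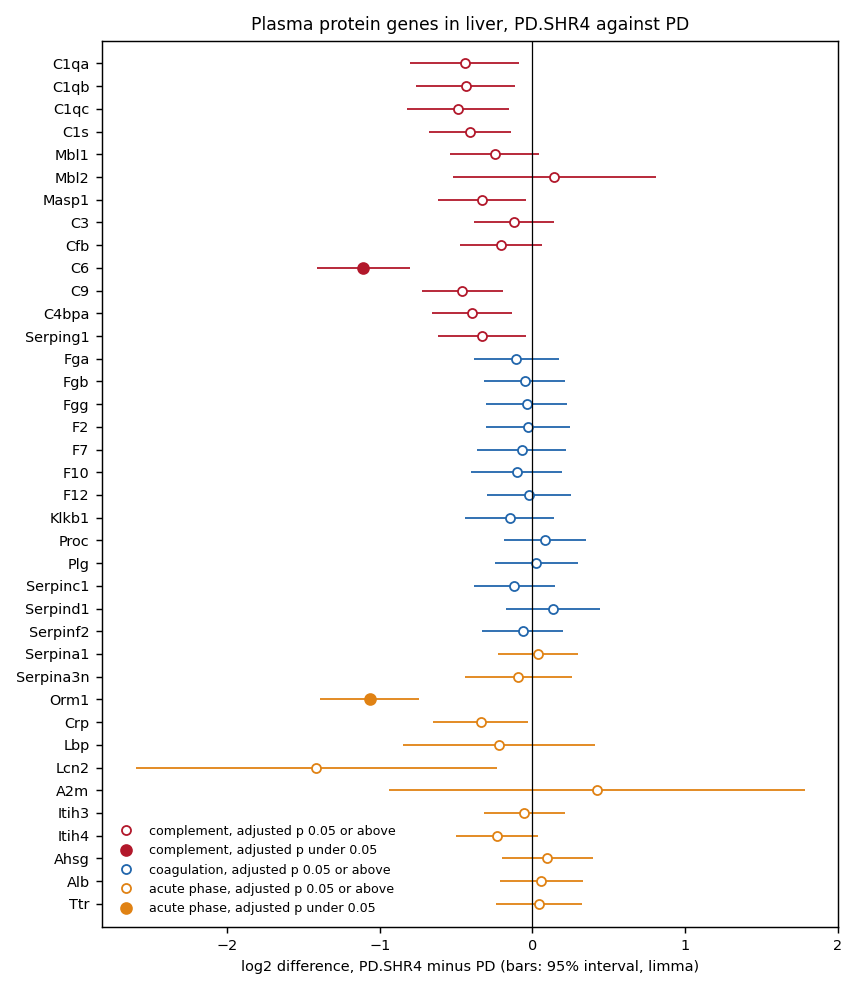
Log2 difference (PD.SHR4 minus PD, horizontal axis) of the 38 measured genes, with 95% intervals from limma; colours mark the 3 families, and filled points passed at an adjusted p under 0.05. C6 at -1.11 and Orm1 at -1.07 are the filled points, 9 of 13 complement intervals exclude 0, and all 13 coagulation intervals include it.

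The classical pathway opens with C1q, a bouquet of A, B and C chains that binds antibody, and C1s, the protease it activates. C1qa measured 10.10 and 10.08 in PD.SHR4, against 10.68, 10.33 and 10.59 in PD. C1qb measured 8.17 and 8.19 in PD.SHR4, against 8.57, 8.50 and 8.77 in PD. The A and B chains thus had both PD.SHR4 arrays below all 3 PD arrays. C1qc measured 9.45 and 9.33 in PD.SHR4, against 10.03, 9.74 and 9.86 in PD, and the strains again did not overlap. The log2 differences of the chains were -0.44 ± 0.15, -0.44 ± 0.13 and -0.49 ± 0.14 (SE), and none passed the test (limma, adjusted p = 0.257, 0.223 and 0.190). In GRCr8 the genes stand in the order C1qb, C1qc, C1qa on chromosome 5, with no other measured gene between them.

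C1s measured 10.40 and 10.37 in PD.SHR4, against 10.80, 10.76 and 10.83 in PD. Its arrays were tight within each strain and did not overlap between strains, at a difference of -0.41 ± 0.11 (SE; limma, adjusted p = 0.182). C1s and A2m were the 2 measured members on chromosome 4, the chromosome that carries Cd36 and the SHR segment, and 14 measured genes lie between them. How far the segment reaches was not analysed here. The next component, C4, was read by a probe set annotated with both C4b and C4a, which measured 11.43 and 11.34 in PD.SHR4, against 12.07, 11.77 and 12.005 in PD. Its difference of -0.56 ± 0.14 (SE; limma, adjusted p = 0.157) was larger than those of the C1q chains and C1s, without a test of that contrast.

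The C1q chains were set beside macrophage markers, because macrophages make them. Of 15 listed Kupffer cell and macrophage markers, 7 were measured and 0 passed the test, with 6 values below 0 and a median of -0.57. Tyrobp, an adaptor of myeloid receptors, measured -0.80 ± 0.12 (SE; limma, adjusted p = 0.0572) and the macrophage receptor Adgre1 -0.71 ± 0.16 (adjusted p = 0.123). Aif1 measured -0.58 ± 0.12 and Vsig4, a complement receptor of Kupffer cells, -0.57 ± 0.14, with adjusted p = 0.113 and 0.144. The other 3, named to complete the list after their values were seen, were Cd14 at -0.22, the Kupffer cell lectin Clec4f at -0.079 and the lysozyme Lyz2 at 0.16. Summed over the 7 markers on the linear scale, the level was 3513 to 3571 in PD.SHR4 and 4000 to 4480 in PD. The mean levels of the 7 markers were 5.74 to 10.5. In bulk tissue, fewer cells of a type and less RNA per cell cannot be told apart, and the part of macrophage content in the C1q values was not tested. Lymphocyte markers also had lower values, with 8 of 10 below 0, a median of -0.49, and a summed linear level of 305 to 318 in PD.SHR4 and 430 to 526 in PD. The 2 above 0 were Cd2 at 0.20 and Cd4 at 0.063. Mean levels of the 10 were 2.55 to 6.81, with a median of 4.86, so several were dim. The part of lymphocytes in the complement values was not tested.

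**Figure D2:**
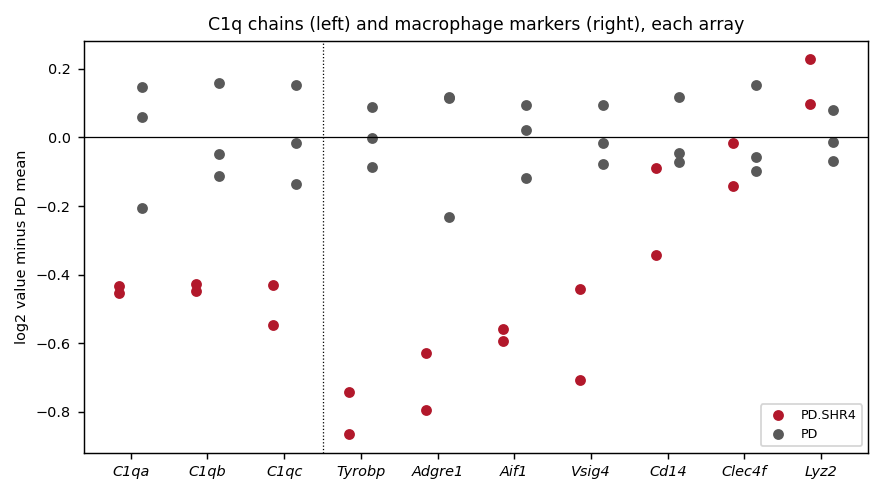
Log2 value of each array minus the PD mean of that gene (vertical axis) for the C1q chains, left of the dotted line, and the 7 measured macrophage markers, right of it; red points are the 2 PD.SHR4 arrays and grey points the 3 PD arrays. The C1q differences (-0.49 to -0.44) lie between those of Tyrobp (-0.80) and Lyz2 (0.16).

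In the lectin pathway, the mannose-binding lectins Mbl1 and Mbl2 bind microbial sugars and Masp1 is a protease carried with them. Masp1 measured 9.55 and 9.63 in PD.SHR4, against 9.98, 9.84 and 9.95 in PD, a difference of -0.33 ± 0.12 (SE; limma, adjusted p = 0.288). Mbl1 measured 10.20 and 10.29 in PD.SHR4, against 10.43, 10.58 and 10.47 in PD, a difference of -0.25 ± 0.12. Neither gene's arrays overlapped between the strains. Mbl2 was the only complement member with a value above 0, 0.14 ± 0.27, with 10.48 and 10.48 in PD.SHR4 against 9.89, 10.82 and 10.29 in PD. Its PD arrays spanned 0.93, so both PD.SHR4 arrays lay inside the PD range, and without PD array 1 the value was -0.078.

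C3, on which all 3 pathways converge, measured 12.63 and 12.62 in PD.SHR4, against 12.74, 12.74 and 12.76 in PD. Cfb, the protease of the alternative pathway convertase, measured 11.88 and 11.83 in PD.SHR4, against 12.08, 12.03 and 12.08 in PD. For both genes the PD.SHR4 arrays lay below all PD arrays, by small margins. The differences were -0.12 ± 0.11 and -0.21 ± 0.11 (SE; limma, adjusted p = 0.721 and 0.489), with 95% intervals of -0.38 to 0.14 for C3 and -0.48 to 0.060 for Cfb.

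The terminal components C6 and C9 build the membrane pore, C6 joining C5b at the start and C9 forming the ring. C6 fell most among the complement genes, with 10.47 and 10.27 in PD.SHR4 against 11.45, 11.43 and 11.55 in PD. The gap between the strains was far wider than the spread within either. Its level was 2.16-fold lower, a log2 difference of -1.11 ± 0.12 (SE, 95% interval -1.41 to -0.80; limma, adjusted p = 0.0352). Leaving out PD array 1, 2 or 3 gave differences of -1.12, -1.13 and -1.07 with adjusted p = 0.0737, 0.0510 and 0.117 (limma), so each of the 3 ended the call. Without PD.SHR4 array 1 or 2 the differences were -1.21 and -1.01, with adjusted p = 0.243 and 0.373 (limma).

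C9 measured 11.71 and 11.75 in PD.SHR4, against 12.19, 12.21 and 12.18 in PD. The arrays of each strain lay within 0.042 of each other in PD.SHR4 and 0.027 in PD, and the difference was -0.46 ± 0.11 (SE; limma, adjusted p = 0.140). C6 and C9 are close neighbours on chromosome 2, with 3 measured genes between them, and 135 measured genes separate C9 from the fibrinogen cluster on the same chromosome.

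Among the inhibitors, C4bpa is the alpha chain of C4b-binding protein, which dismantles the classical convertase, and Serping1 is C1 inhibitor, which blocks C1s, Masp proteases, kallikrein and factor XIIa. C4bpa measured 11.91 and 11.91 in PD.SHR4, against 12.32, 12.31 and 12.30 in PD. This was the tightest separation of the family, with ranges of 0.0044 in PD.SHR4 and 0.017 in PD and a difference of -0.40 ± 0.11 (SE; limma, adjusted p = 0.183). Limma pools the spread over probe sets, so the SE of C4bpa is larger than its own arrays would give, and in a fit without that pooling it passed (adjusted p = 0.0400). Serping1 measured 11.96 and 11.93 in PD.SHR4, against 12.38, 12.20 and 12.25 in PD, a difference of -0.33 ± 0.12 (SE; limma, adjusted p = 0.293). The other chain of C4b-binding protein, C4bpb, is not a listed member and was chosen after its value was seen. It overlapped between the strains, at a difference of -0.027 ± 0.11 (SE; limma, adjusted p = 0.957).

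In all, 12 of the 13 complement genes had both PD.SHR4 arrays below all PD arrays, against 17.1% of all probe sets. Those probe sets were mostly dimmer and more variable, so that share is not matched for level. The summed linear level of the 13 genes was 29218 to 29509 in PD.SHR4 and 36811 to 37228 in PD. The 12 genes kept values below 0 under each of 13 other settings, while Mbl2 was below 0 without PD array 1. For the 12 genes most of these settings could not turn the sign. Arrays that do not overlap keep it when an array is left out, weighted or blocked. Settings of the spread or of the probe sets left the differences unchanged. Only median centring and a further quantile normalisation could have turned it. With an intensity trend and robust shrinkage together, C9 and C4bpa passed beside C6 (limma, adjusted p = 0.0274 and 0.0356). With array weights, C9, C4bpa, C1qa, C1qb, C1qc and C1s passed beside C6 (limma, adjusted p = 0.0236, 0.0342, 0.0291, 0.0246, 0.0325 and 0.0271).

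**Figure D3:**
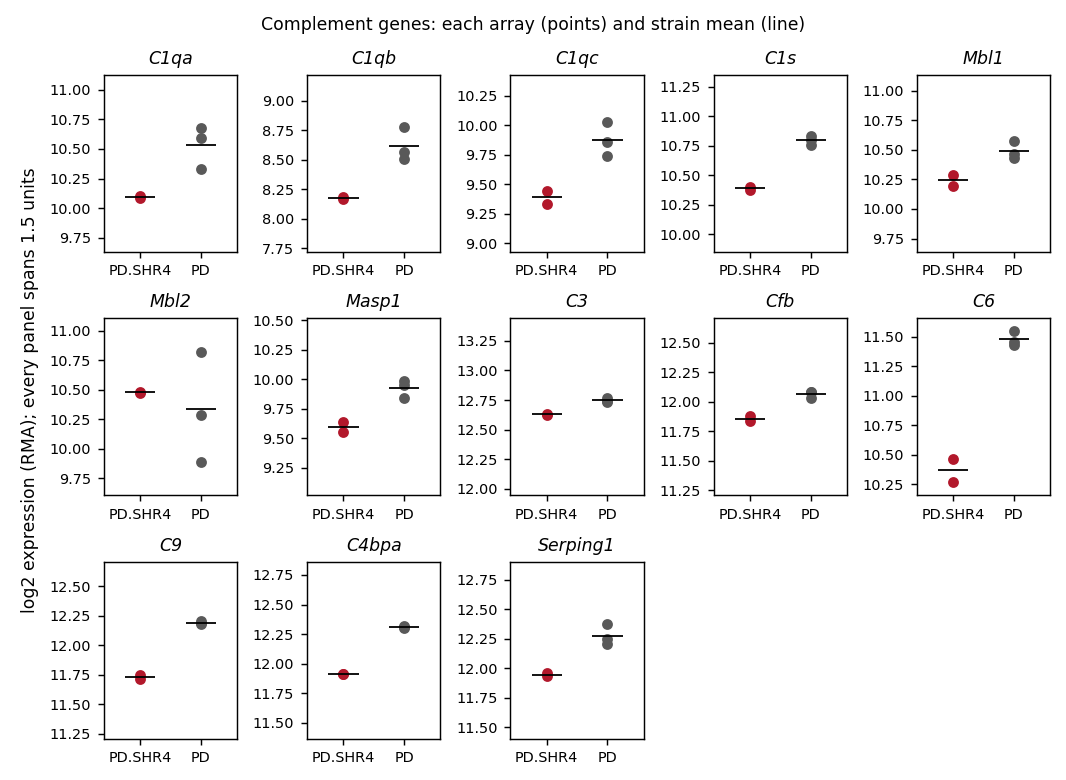
Log2 expression (vertical axes, each spanning 1.5 units) of the 13 measured complement genes; red points are the 2 PD.SHR4 arrays, grey points the 3 PD arrays, and lines the strain means. All panels but Mbl2 show the strains without overlap, with the widest gap in C6, 10.27 and 10.47 in PD.SHR4 against 11.43 to 11.55 in PD.

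Other complement genes were taken from a list of 28, of which 15 were measured. None passed the test, 10 of 15 had values below 0 and the median was -0.075. The lowest p were those of receptors and chaperones and of a protease: Vsig4 (above), Calr (-0.48 ± 0.12 SE; limma, adjusted p = 0.168), a chaperone that also binds C1q, C3ar1, the C3a receptor (-0.78 ± 0.22; adjusted p = 0.204), and C1rl, a C1r-like protease (-0.22 ± 0.11; adjusted p = 0.462). The median of these 15 was therefore nearer to 0 than that of the 13 listed members, without a test of that contrast.

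Coagulation genes showed no detectable difference between the strains. Of 13 measured, none passed the test, 10 had values below 0 and 3 above, from -0.15 to 0.14, and 0 had an unadjusted p under 0.05. When arrays were centred on their medians, the family's median was 0.0029, with 6 values below 0 and 7 above, so its direction was not settled. In 6 of the 13 genes the PD.SHR4 arrays lay below all PD arrays and in 1 above, beside 17.1% and 14.8% of all probe sets, not matched for level. The 95% intervals of the 13 differences ran from -0.44 at the lowest bound to 0.44 at the highest, so larger differences lay outside all of them.

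The fibrinogen chains Fga, Fgb and Fgg form the clot's substrate and are also positive acute phase proteins. Fga measured 12.70 and 12.68 in PD.SHR4, against 12.75, 12.77 and 12.87 in PD. Fgb measured 12.88 and 12.92 in PD.SHR4, against 12.94, 12.94 and 12.96 in PD. Fgg measured 12.89 and 12.88 in PD.SHR4, against 12.93, 12.93 and 12.91 in PD. The PD.SHR4 arrays lay just below the PD arrays for each chain, by differences of -0.10, -0.051 and -0.038 (limma, adjusted p = 0.784, 0.905 and 0.935), and those of Fgb and Fgg turned to 0.0029 and 0.015 after median centring. The genes adjoin each other in the order Fgg, Fga, Fgb on chromosome 2. All chains lay within 1 unit of the highest array value, 13.4.

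Of the clotting proteases, F2 is prothrombin, F7 starts the cascade with tissue factor, F10 makes the thrombin-forming protease and F12 starts the contact pathway. F2 measured 12.20 and 12.24 in PD.SHR4, against 12.20, 12.31 and 12.24 in PD. F7 measured 9.74 and 9.66 in PD.SHR4, against 9.71, 9.72 and 9.87 in PD. F10 measured 11.10 and 10.998 in PD.SHR4, against 11.05, 11.19 and 11.22 in PD. These genes overlapped between the strains, as did F12, with 11.77 and 11.67 in PD.SHR4 against 11.73, 11.72 and 11.77 in PD. F10 and F7 are adjacent among measured genes on chromosome 16, and their differences were -0.10 ± 0.12 and -0.070 ± 0.12 (SE).

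Klkb1, plasma prekallikrein, measured 10.63 and 10.67 in PD.SHR4, against 10.74, 10.91 and 10.75 in PD, the lowest coagulation value at -0.15 ± 0.12 (SE; limma, adjusted p = 0.678). Its cofactor kininogen was read by a pair of probe sets annotated with Kng1, Kng2 and Kng2l1 together. One measured 11.80 and 11.84 in PD.SHR4, against 12.06, 12.19 and 12.01 in PD (-0.27 ± 0.12), and the other 11.61 and 11.58 in PD.SHR4, against 11.87, 11.87 and 11.68 in PD (-0.21 ± 0.12). Both kept the strains apart, and neither passed the test (limma, adjusted p = 0.410 and 0.547).

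Anticoagulants and fibrinolysis genes went both ways. Serpinc1, antithrombin, measured 12.67 and 12.66 in PD.SHR4, against 12.79, 12.80 and 12.76 in PD (-0.12 ± 0.11 SE). Serpind1, heparin cofactor II, measured 11.85 and 11.81 in PD.SHR4, against 11.58, 11.82 and 11.68 in PD (0.14 ± 0.12). Antithrombin was thus slightly lower without overlap, while Serpind1 overlapped between the strains. Proc, protein C, measured 11.44 and 11.42 in PD.SHR4, against 11.40, 11.31 and 11.33 in PD, and was the only coagulation gene with both PD.SHR4 arrays above all PD arrays (0.082 ± 0.11). Plg, plasminogen, and Serpinf2, the plasmin inhibitor, measured 0.026 ± 0.11 and -0.064 ± 0.11, and the lowest adjusted p of the 5 genes was 0.727 (limma).

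The wider list of 35 coagulation and fibrinolysis genes, of which 25 were measured, had 1 fall and 0 rises, with 15 values below 0 and a median of -0.072. Gas6 fell, a vitamin K-dependent ligand of TAM receptors related to protein S, with 7.74 and 7.80 in PD.SHR4 against 9.69, 9.16 and 9.62 in PD. Its difference was -1.72 ± 0.19 (SE; limma, adjusted p = 0.0344), and the strains were separated by more than 1 unit. The call held without PD array 2 (adjusted p = 0.0349) and was lost without PD array 1 or 3 or PD.SHR4 array 1 or 2 (limma, adjusted p = 0.0730, 0.101, 0.251 and 0.308). Hgfac, a hepatocyte growth factor activating protease, measured -0.62 ± 0.14, Plau, urokinase, -0.50 ± 0.12 and the fibrinogen-like hepatokine Fgl1 -0.50 ± 0.12 (SE; limma, adjusted p = 0.121, 0.135 and 0.144). Vkorc1, the vitamin K reductase that supports clotting factor carboxylation, was chosen after its value was seen and measured 10.25 and 10.43 in PD.SHR4, against 10.77, 11.13 and 11.10 in PD (-0.66 ± 0.16; adjusted p = 0.148). Values above 0 were found in 10 of the 25 genes. Among them Habp2, also chosen after its value was seen, was higher without overlap (0.36 ± 0.11 SE; limma, adjusted p = 0.244).

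Among positive acute phase proteins, Orm1 fell, and 8 of the 9 measured did not pass the test. Orm1 encodes alpha-1-acid glycoprotein, a plasma carrier of basic drugs. It measured 11.46 and 11.42 in PD.SHR4, against 12.55, 12.34 and 12.62 in PD. Both PD.SHR4 arrays lay well below the lowest PD array. The level was 2.10-fold lower, a log2 difference of -1.07 ± 0.13 (SE, 95% interval -1.39 to -0.74; limma, adjusted p = 0.0392). The call held without PD array 2 (adjusted p = 0.0433), and it was lost without PD array 1 or 3 or PD.SHR4 array 1 or 2 (limma, adjusted p = 0.0911, 0.131, 0.265 and 0.373) and after median centring (adjusted p = 0.0548).

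Lcn2, a siderophore-binding lipocalin of hepatocytes and neutrophils, was the dimmest member, with 3.49 and 3.70 in PD.SHR4 against 5.45, 4.01 and 5.58 in PD. The strains did not overlap, but PD array 2 lay nearer to the PD.SHR4 arrays than to the other PD arrays. The difference of -1.42 ± 0.48 (SE; limma, adjusted p = 0.270) was -1.92 without PD array 2, and it then passed (adjusted p = 0.0353). Neutrophil markers measured beside it had a median of -0.34 over 4 genes of 10 listed, and went both ways. S100a8 measured -0.91 ± 0.17 (SE), S100a9 -0.57 ± 0.16, Mmp8 -0.11 ± 0.13 and Cxcr2 0.38 ± 0.19 (limma, adjusted p = 0.0855, 0.190, 0.790 and 0.468). Their summed linear level was 126 to 137 in PD.SHR4 and 163 to 207 in PD, and their part in the Lcn2 value was not tested.

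Crp, C-reactive protein, measured 12.15 and 12.18 in PD.SHR4, against 12.41, 12.65 and 12.46 in PD, a difference of -0.34 ± 0.13 (SE; limma, adjusted p = 0.317). Itih4, of the inter-alpha-trypsin inhibitor heavy chain family, measured 12.52 and 12.47 in PD.SHR4, against 12.72, 12.70 and 12.76 in PD, a difference of -0.23 ± 0.11. For both genes the PD.SHR4 arrays lay below all PD arrays. The adjacent Itih3 measured 12.69 and 12.64 in PD.SHR4, against 12.71, 12.71 and 12.73 in PD (-0.053 ± 0.11, and 7e-05 after median centring). The probe set shared by Saa4, a serum amyloid A, and its neighbour Hps5 measured 12.16 and 12.14 in PD.SHR4, against 12.59, 12.45 and 12.61 in PD (-0.40 ± 0.12; adjusted p = 0.217).

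The remaining positive acute phase genes overlapped between the strains or differed by less than 0.1. Lbp, which hands lipopolysaccharide to CD14, measured 11.11 and 11.11 in PD.SHR4, against 11.71, 10.85 and 11.42 in PD (-0.22 ± 0.26 SE). A2m, alpha-2-macroglobulin, a major acute phase protein of the rat, measured 8.00 and 6.99 in PD.SHR4, against 7.85, 6.11 and 7.26 in PD (0.42 ± 0.55). A2m varied more within each strain than between them, and its value was -0.061 without PD array 2 and -0.080 without PD.SHR4 array 1. Serpina3n measured 12.51 and 12.46 in PD.SHR4, against 12.69, 12.38 and 12.67 in PD, and Serpina1, alpha-1-antitrypsin, 12.88 and 12.86 in PD.SHR4, against 12.83, 12.83 and 12.84 in PD. Their differences were -0.094 ± 0.14 and 0.037 ± 0.11.

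The negative acute phase proteins and carriers were slightly higher in PD.SHR4 and overlapped between the strains. Ahsg, fetuin-A, measured 13.11 and 13.12 in PD.SHR4, against 12.94, 13.14 and 12.98 in PD. Alb, albumin, measured 13.24 and 13.27 in PD.SHR4, against 13.16, 13.25 and 13.18 in PD. Ttr, the thyroxine and retinol-binding protein carrier transthyretin, measured 13.06 and 13.06 in PD.SHR4, against 12.95, 13.09 and 13.01 in PD. The differences of 0.097, 0.058 and 0.042 were within the SE of 0.12, 0.11 and 0.11 (limma, adjusted p = 0.821, 0.894 and 0.931).

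The PD arrays differed among themselves, in the acute phase genes and in others. Of the 9 positive members, 8 had their lowest PD value on PD array 2, at -1.51 against the mean of PD arrays 1 and 3 for Lcn2 and -1.45 for A2m. The exception was Crp. All 3 negative members had their highest PD value on that array. For Serpina1 and Itih3 the departure was only -0.0041 and -0.0094, and the same share over all probe sets was not counted. The pattern was not particular to the acute phase genes. Among complement genes, C1qa, C1qb and C1qc also had their lowest PD value on array 2, at -0.31, -0.17 and -0.20 against that mean. Mbl1 and Mbl2 departed upward on it, by 0.13 and 0.73, beside -0.71 for Lbp. The median absolute difference between PD arrays 1 and 2 was 0.21 over the 12 acute phase genes, 0.066 over the complement genes and 0.022 over the coagulation genes, while between the PD.SHR4 arrays it was 0.034, 0.030 and 0.033. Over all probe sets the same values were 0.26 for PD arrays 1 and 2 and 0.13 for the PD.SHR4 arrays. Without PD array 2 the acute phase median was -0.13, with 8 of 12 values below 0, and the complement median was -0.40.

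**Figure D4:**
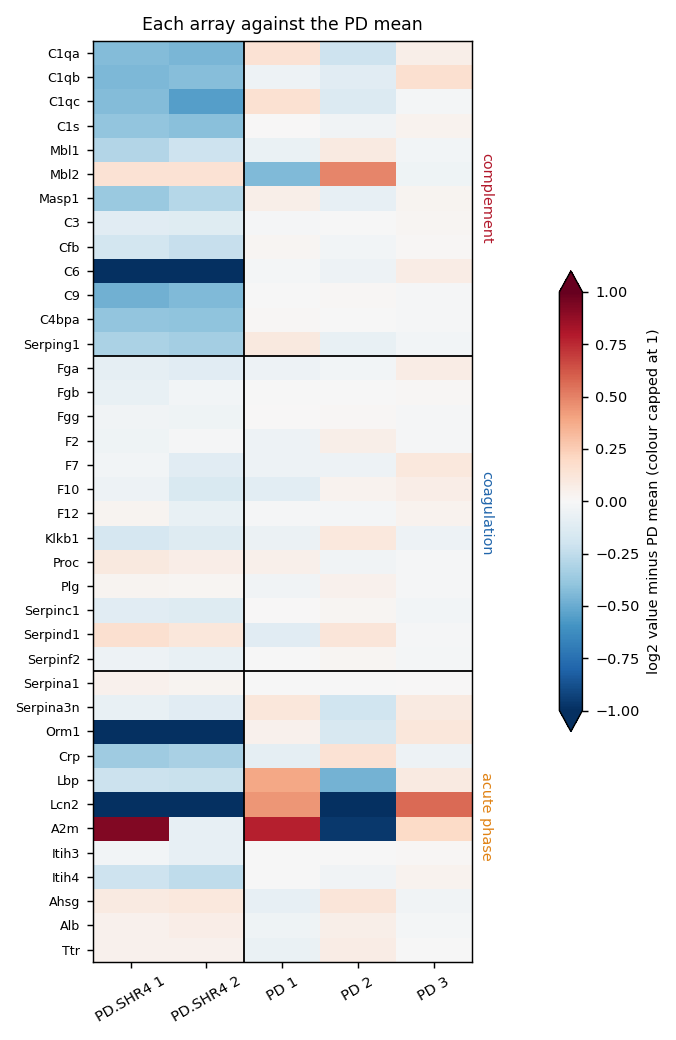
Log2 value of each array minus the PD mean of that gene, as colour (capped at 1), for the 38 genes in rows and the arrays in columns, PD.SHR4 left of PD; horizontal lines part the 3 families. The complement rows are blue on both PD.SHR4 arrays except Mbl2, the coagulation rows are pale, and PD array 2 stands apart in Mbl2, Lbp, Lcn2 and A2m.

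Other acute phase and plasma proteins gave 1 fall, 0 rises and 19 genes that did not pass among 20 measured of 34 listed, with a median of -0.023. The fall was that of Hamp, hepcidin, the interleukin 6-responsive iron hormone, with 10.62 and 10.23 in PD.SHR4 against 11.80, 11.64 and 11.73 in PD (-1.30 ± 0.16 SE; limma, adjusted p = 0.0392). Leaving out any of the 5 arrays ended that call, at adjusted p = 0.0593 to 0.329 (limma), with PD array 2 the lowest and PD.SHR4 array 2 the highest. Cp, the copper protein ceruloplasmin, measured -0.32 ± 0.11 and Tat, tyrosine aminotransferase, a glucocorticoid-induced enzyme, -0.61 ± 0.21, and neither passed (limma, adjusted p = 0.272 and 0.270). Il1rn, the interleukin 1 receptor antagonist, measured 0.19 ± 0.11. Haptoglobin (Hp), chosen after its value was seen, measured 13.14 and 13.19 in PD.SHR4, against 13.24, 13.22 and 13.30 in PD.

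Of 35 listed receptors, signalling and transcription factors of the acute phase response, 29 were measured and none passed the test, with 15 values below 0 and 14 above. The lowest p belonged to liver transcription factors and a tumour necrosis factor receptor. Foxa3 measured 0.95 ± 0.20, Tnfrsf1b -0.75 ± 0.16, Onecut1 -0.89 ± 0.19 and Foxa1 -0.55 ± 0.12 (SE; limma, adjusted p = 0.106, 0.107, 0.113 and 0.119). The interleukin 6 receptor Il6r measured 0.33 ± 0.11, its partner Il6st 0.099 ± 0.12 and Stat3 0.25 ± 0.17, all picked for their role after the values were seen. None was near the threshold (limma, adjusted p = 0.259, 0.807 and 0.634). Other genes of the list went both ways, with Osmr at -0.35, Lifr at -0.31, Jak2 at -0.25 and Jak1 at 0.26. Picked likewise, Socs3, the feedback inhibitor of interleukin 6 signalling, measured 0.093 ± 0.25, Cebpb -0.27 ± 0.14 and Cebpa 0.18 ± 0.12 (limma, adjusted p = 0.931, 0.473 and 0.614).

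The families also differed in where they lie on the array's scale. Mean levels of 12 or above were found in 4 of 13 complement, 6 of 13 coagulation and 9 of 12 acute phase genes. Among members below 12 the medians were -0.41 for complement, -0.064 for coagulation and -0.22 for the 3 acute phase genes left, a comparison added after seeing the data. The difference between the families was not tested. C6 and Orm1 had mean levels of 11.03 and 12.1.

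**Figure D5:**
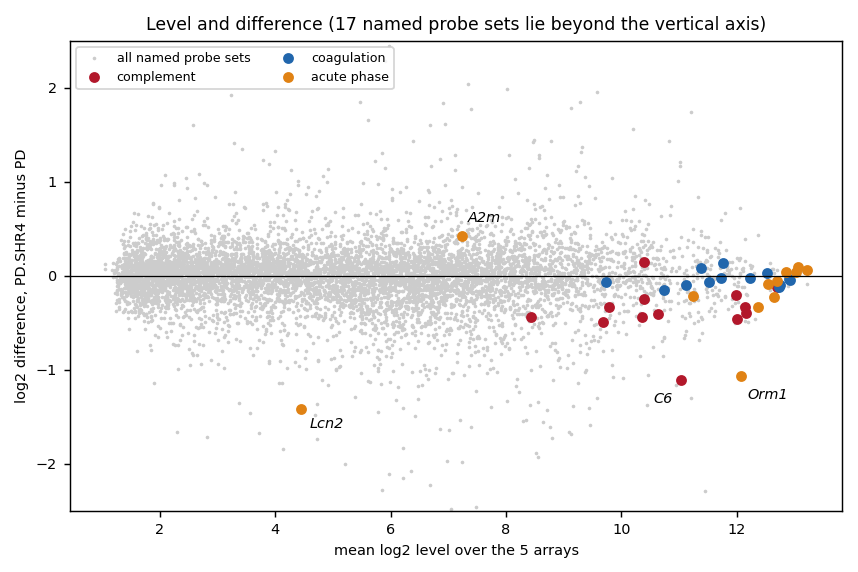
Mean log2 level over the 5 arrays (horizontal axis) against log2 difference, PD.SHR4 minus PD (vertical axis, cut at 2.5 either way with 17 named probe sets beyond it), for all named probe sets in grey and the 3 families in colour. Apart from C6 at -1.11 and Mbl2 at 0.14, the complement genes lie between -0.49 and -0.12, and the coagulation genes between -0.15 and 0.14.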

How the data were processed

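The values were deposited by the authors on the log2 scale, 1 per probe set and array. Per the labels, they come from RMA in Affymetrix Expression Console (core-gene analysis), and the submitters' processing notes also name Partek. Tool versions and build: not given in the sources used here. RMA subtracts background, equalises array distributions and summarises probes, and very bright or dim probe sets can show compressed differences.

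Of 8797 probe sets, 7603 had 1 gene symbol in GEO's platform annotation, 409 several and 785 none. Gene IDs of 7584 matched RefSeq (GRCr8), used for symbols, gene order and promoters (1 window per gene ID, the first listed for Fga). The brightest probe set stood for each of 14 genes with several.

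The strains were compared with limma 3.58.1 (R 4.3.3; lmFit and eBayes, two-sided) over all 5 arrays without covariates, as PD.SHR4 minus PD, adjusted over all probe sets. SE and 95% intervals are those of the moderated fit. Tested on simulated data for this comparison (8797 probe sets), the fit found 8% of differences sized 0.5, 80% at size 1 and 100% at sizes 2 and 3 (log2), and 12 of its 156 calls were false. The simulated noise was independent between arrays and probe sets, without array-wide effects or variation from rat to rat. Changes were planted at random over all probe sets, so the rates need not hold for the real arrays or for the bright members.

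Named were members past the threshold, members with an unadjusted p under 0.05, up to 3 members of each role by smallest p, and up to 4 genes of each other list by smallest p. The remaining members are given too, to account for all of them. Members and lists were chosen with earlier results of these data known. Of the other cell type lists, values below 0 were found in 7 of 10 stellate cell genes, 1 of 3 cholangiocyte genes and 2 of 2 genes each of platelets and erythroid cells. No gene of these lists passed, and no endothelial marker was measured. Alternatives are listed in the closing section.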

Additional observations from a re-analysis of the deposited data

How the results depend on the processing

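The 2 calls among members rest on few arrays. The count of members that passed (2) was 9 with array weights (C6, Orm1, C9, C4bpa, C1qa, C1qb, C1qc, C1s and Lcn2), 4 with an intensity trend and robust shrinkage, 1 after centring arrays on their medians and 1 without variance shrinkage, and 0 to 2 when an array was left out. Over all probe sets the count (82) was 819 with array weights, 151 with the trend and robust shrinkage together, 149 without the dimmest 25% of probe sets, 2 without shrinkage and 0 to 55 when an array was left out, where the lone PD.SHR4 array is assumed to vary like PD (unadjusted p under 0.05 for 737 and 710 probe sets). The complement median was -0.34 after median centring and -0.40 to -0.36 with an array left out. The coagulation median was 0.0029 after centring and -0.075 to -0.044 with an array left out. The acute phase median was -0.020 after centring, -0.12 with array weights, -0.22 among members with a level under 12, and -0.13 to -0.032 with an array left out.

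Values near 0 changed sign. After centring, Fgb was 0.0029, Fgg 0.015, F2 0.025, F12 0.031 and Itih3 7e-05, and after a further quantile normalisation Fgb was 0.0076, Fgg 0.028 and F2 0.015. With an array left out, Mbl2 ranged over -0.078 to 0.39, F2 over -0.054 to 0.0020, F12 over -0.076 to 0.030, Socs3 over -0.075 to 0.33 and A2m over -0.080 to 0.92. Without variance shrinkage C6, Orm1, Hamp and Gas6 did not pass (adjusted p = 0.168, 0.197, 0.202 and 0.202). Median centring shifts every difference by the same amount, so values just below 0 turned with it. The cause of the other changes was not tested.

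The replicate numbers are array names, and deviations of same-numbered arrays from their strain means correlated at 0.050 and 0.082. These 2 values rest on the same contrast of the PD.SHR4 arrays and cannot show that no pairing exists. With the number as a replicate block, 163 probe sets and 2 members passed, and the family medians were -0.36, -0.044 and -0.048. Using the mean of several probe sets changed no member.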
